A study of Drosophila melanogaster with 9 samples.

Results

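Spermatid individualization is a late step of sperm formation in *Drosophila*, in which the interconnected spermatids of a cyst are separated from each other and lose most of their cytoplasm. Cones of actin travel along the sperm tails and sweep the cytoplasm into a waste bag, and the process depends on caspases, proteases that are best known for cell death but here act without killing the cell. Caspase activation in this setting is promoted by a testis ubiquitin ligase built on Cullin-3, with the substrate adaptor Klhl10 and the RING-finger subunit Roc1b. Of 10 genes of this machinery, the transcripts of 7 could be followed in testes in which *tbrd-2* was knocked down. The 10 were the ligase genes *Cul3*, *klhl10* and *Roc1b*, the deubiquitinase gene *Duba*, the caspase genes *Dronc* and *Drice*, their activators *Dark* and *Cyt-c-d*, the inhibitor *Bruce* and the myosin VI gene *jar*. *tbrd-2* encodes a testis bromodomain protein, of a class known for binding acetylated histones. In the study's pull-down assays, however, this protein bound histone peptides without a preference for acetylated ones, and acetylation seemed to weaken its binding.

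Members were found by gene identifier among probe sets that the platform annotation gives a single gene symbol, and every probe set of a gene was kept. This gave 9 of 18952 probe sets, for 7 of the 10 genes, among 11983 genes with such a probe set. *jar*, *Drice* and *Cyt-c-d* had no probe set under their names or identifiers in the annotation used and were not analysed here. The symbol *Cyt-c1*, which is on the array, belongs to another gene.

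Whole testes of males 0 to 2 days old, kept at 30°C, were compared on 9 Affymetrix Drosophila Genome 2.0 arrays, 3 per genotype. The knockdown males (*bam*≫*tbrd-2RNAi*) carried 2 copies of the *bam*-Gal4 driver, on chromosomes X and III, and 1 copy of the UAS hairpin against *tbrd-2*, on chromosome III. The *bam*-Gal4 control carried the same 2 driver copies and no hairpin, and the undriven control (*tbrd-2RNAi*) carried 1 hairpin copy and no driver. In both controls the labels give a chromosome III homologue marked with Sb, which the knockdown does not carry. The *bam* promoter drives Gal4 in late spermatogonia and early spermatocytes, the hairpin is 1 RNAi line, and each array holds separate RNA from pooled males (30 per the labels, while the methods give another number).

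The values are log2 signals after RMA, which scales all arrays to a common distribution, so each is relative to the other transcripts of its array and levels of different probe sets cannot be set against each other. Column medians ran from 5.86 to 5.96, and arrays of the same genotype correlated at 0.988 to 0.997 over all probe sets. The knockdown was visible in its target. *tbrd-2* was at 8.06, 7.82 and 8.05 in knockdown testes, against 10.52, 10.52 and 10.73 in *bam*-Gal4 and 10.19, 10.39 and 10.36 in undriven testes, changes of −2.61 and −2.34 on the log2 scale (limma adjusted p = 2.73e-06 and 3.75e-06). Arrays differed in transcripts of tissues next to the testis. The mean of 11 accessory gland genes was 10.13 to 11.75 in knockdown, 8.13 to 11.96 in *bam*-Gal4 and 9.19 to 10.49 in undriven arrays. Its averages by genotype were 10.92, 10.08 and 9.80, highest in the knockdown. The mean of 4 ejaculatory duct genes was 7.41 to 11.04 in knockdown, 8.39 to 10.37 in *bam*-Gal4 and 8.485 to 8.995 in undriven arrays. For 7 gut genes it was 5.47 to 7.40 in knockdown, 5.65 to 5.72 in *bam*-Gal4 and 5.65 to 6.72 in undriven arrays. None of these genes passed against both controls. All 10 spermatocyte and spermatid markers were measured, none with a mean under 5, and 0 passed in either direction against both controls. Their mean log2 value was 10.20 to 10.36 in knockdown, 10.20 to 10.40 in *bam*-Gal4 and 10.21 to 10.27 in undriven arrays. This was nearly even, but opposite changes of single genes cancel in such a mean. Against a single control, *can* passed as lower than in *bam*-Gal4 (−0.37, adjusted p = 0.0127) and *tbrd-1* as higher than in undriven testes (0.39, adjusted p = 0.00676). Spermatogonial markers (3 of 5 measured) and cyst and hub markers (5 of 6, 3 of them with a mean under 5) likewise had none that passed against both, and of 5 muscle sheath genes 1, *Act87E*, was lower than in both controls.

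A probe set passed the test where limma gave an adjusted p under 0.05 over all 18952 probe sets. By that rule the ligase genes and *Duba* were lower in knockdown testes, and the probe sets of *Dark*, *Dronc* and *Bruce* did not pass. Of the 9 probe sets, 4 were lower than in *bam*-Gal4 testes, 4 were lower than in undriven testes, and the same 4, of *Cul3*, *klhl10*, *Roc1b* and *Duba*, were lower than in both. Among all probe sets 8.07% were lower than in *bam*-Gal4, 9.10% lower than in undriven and 5.88% lower than in both. None of the 9 was higher, beside 10.6%, 9.96% and 7.19% of all probe sets in the same 3 counts. Of the 9, 8 had a mean log2 value of at least 6, where calls were more frequent. In a fit of only the 9298 probe sets with such a mean, 1098 were lower than in both controls and 1310 higher. The median log2-fold change of the 9 was −0.38 against *bam*-Gal4 and −0.39 against undriven testes, beside −0.02 and −0.03 over all probe sets. In each of those 4 probe sets all 3 knockdown arrays lay below all 6 control arrays, a pattern held by 11.5% of all probe sets. With a further fold limit, a doubling or halving (1 on the log2 scale), 1 of the 9 was lower than in *bam*-Gal4 (*klhl10*; background 0.496%), 0 were lower than in undriven (0.628%) and 0 were lower than in both (0.354%). None was higher by this rule, beside 0.791%, 0.633% and 0.454% of all probe sets. The 2 knockdown comparisons share their knockdown arrays. In whole testes, fewer cells of a type and less RNA per cell cannot be told apart.

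**Figure D1:**
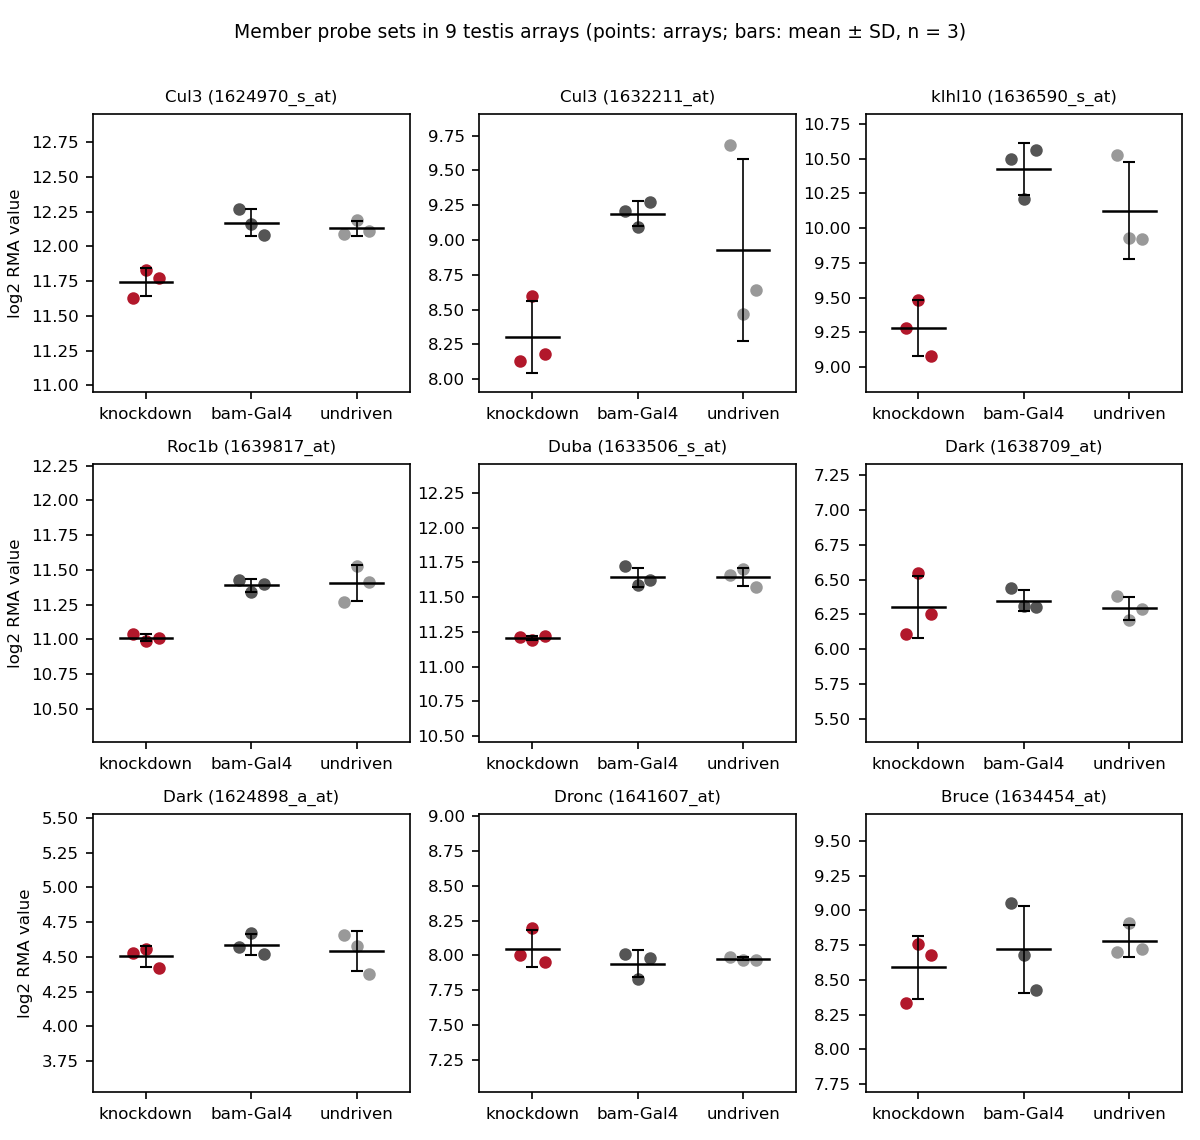
log2 RMA value (vertical axis, a window of equal height in every panel) of the 9 probe sets in knockdown, bam-Gal4 and undriven testes; points are single arrays, lines the mean and bars the SD (n = 3 arrays per genotype). The knockdown points lie below every control point for Cul3 (1624970_s_at), klhl10, Roc1b and Duba, and overlap the control range for Dark, Dronc and Bruce. For Cul3 (1632211_at) they lie below every bam-Gal4 point but overlap the undriven points.

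*klhl10*, whose product brings substrates to the ligase, had the widest drop of the members. Probe set 1636590_s_at was at 9.28, 9.48 and 9.08 in knockdown testes, against 10.5, 10.21 and 10.56 in *bam*-Gal4 testes and 10.53, 9.93 and 9.92 in undriven testes. Every knockdown array was lower than every control array, and the nearest values of the groups were 9.48 in knockdown and 9.92 in undriven testes. The means were 9.28 ± 0.20 in knockdown, 10.42 ± 0.19 in the *bam*-Gal4 control and 10.13 ± 0.35 in the undriven control (SD, n = 3 each). *klhl10* was thus at 45.3% of its *bam*-Gal4 level, a log2-fold change of −1.14 (SE 0.18, 95% interval −1.54 to −0.75, limma adjusted p = 0.00202). Against undriven testes it was at 55.6%, a log2-fold change of −0.85 (95% interval −1.24 to −0.45, adjusted p = 0.0094). From the lowest log2-fold change upwards it ranked 74 of 18952 against *bam*-Gal4 and 238 against undriven testes. It passed the fold limit against *bam*-Gal4 alone, but the gap between its 2 changes is the difference between the controls, 0.30, which did not pass (adjusted p = 0.612). Undriven replicate 1, at 10.53, was the one undriven array within the *bam*-Gal4 range. Without it the change against undriven testes was −0.65 (adjusted p = 0.0177) and the controls differed by 0.50 (adjusted p = 0.193).

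*Cul3* encodes the scaffold of the ligase and had 2 probe sets; which of its transcripts each reads is not given in the sources used here. Probe set 1624970_s_at was at 11.63, 11.83 and 11.77 in knockdown testes, against 12.27, 12.16 and 12.08 in *bam*-Gal4 and 12.09, 12.19 and 12.11 in undriven testes. The groups were close but separate, with all knockdown arrays lowest. This is 74.4% of the *bam*-Gal4 level, a log2-fold change of −0.43 (SE 0.08, 95% interval −0.60 to −0.26, adjusted p = 0.00432), and 76.5% of the undriven level, a log2-fold change of −0.39 (adjusted p = 0.00713).

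The other *Cul3* probe set, 1632211_at, was at 8.13, 8.60 and 8.18 in knockdown testes, against 9.21, 9.09 and 9.27 in *bam*-Gal4 and 9.68, 8.47 and 8.64 in undriven testes. Its knockdown arrays lay below all *bam*-Gal4 arrays but overlapped the undriven ones, which were spread over more than a log2 unit. The log2-fold change was −0.89 against *bam*-Gal4 (95% interval −1.51 to −0.27), which just missed the threshold (adjusted p = 0.0526), and −0.63 against undriven testes (95% interval −1.25 to −0.01, adjusted p = 0.15). Undriven replicate 1 sets much of that spread. Without it the adjusted p against *bam*-Gal4 was 0.00246, while the change against undriven testes was −0.25 (adjusted p = 0.291). The direction of this probe set was the same as that of 1624970_s_at, with no test of the difference between them.

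*Roc1b* encodes the RING subunit that recruits the ubiquitin-conjugating enzyme. Its probe set 1639817_at was at 11.04, 10.99 and 11.01 in knockdown testes, against 11.43, 11.34 and 11.40 in *bam*-Gal4 and 11.27, 11.53 and 11.41 in undriven testes. The knockdown arrays agreed within 0.05 and were all below the lowest control array, undriven replicate 1 at 11.27. *Roc1b* was at 77.0% of the *bam*-Gal4 level, a log2-fold change of −0.38 (SE 0.07, 95% interval −0.54 to −0.21, adjusted p = 0.00672), and at 76.3% of the undriven level, −0.39 (adjusted p = 0.00571).

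*Duba* encodes a deubiquitinase that is needed for caspase activation during individualization. Its values at probe set 1633506_s_at were 11.21, 11.19 and 11.22 in knockdown testes, 11.72, 11.59 and 11.62 in *bam*-Gal4 and 11.66, 11.70 and 11.57 in undriven testes. The groups did not overlap and varied little, with knockdown arrays at 11.21 ± 0.02 against 11.64 ± 0.07 in each control (SD, n = 3 each). The log2-fold change was −0.44 against either control (SE 0.06, 95% interval −0.58 to −0.30, adjusted p = 0.00133 against *bam*-Gal4 and 0.00138 against undriven), or 73.9% of the control level. The suffix _s_at on the *Duba*, *klhl10* and first *Cul3* probe sets marks probes that match more than one transcript. Each has a single symbol in the platform annotation. No source used here lists the transcripts matched, so a match to another gene was not checked.

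The calls of *Cul3* and *Roc1b* did not hold in every set of arrays. One array of each genotype was left out: knockdown replicate 3, highest in its genotype in both the accessory gland and the gut mean, *bam*-Gal4 replicate 2, highest in the accessory gland mean, and undriven replicate 3, highest in the gut mean. The arrays were thus picked by different lists and with their values known. Without them, 2 of the 4 probe sets remained lower than in both controls, those of *klhl10* and *Duba*. *Cul3* was then at −0.45 and −0.41 (adjusted p = 0.0514 and 0.0632) and *Roc1b* at −0.40 and −0.39 (adjusted p = 0.0617 and 0.0657) against *bam*-Gal4 and undriven testes, changes about as large as with all arrays. This fit has fewer arrays per genotype, and over all probe sets those lower than in both controls fell from 1115 to 626. The part of accessory gland and gut transcripts in the results was not tested further. The drop of *klhl10* was −1.15 and −0.85 without these arrays.

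**Figure D2:**
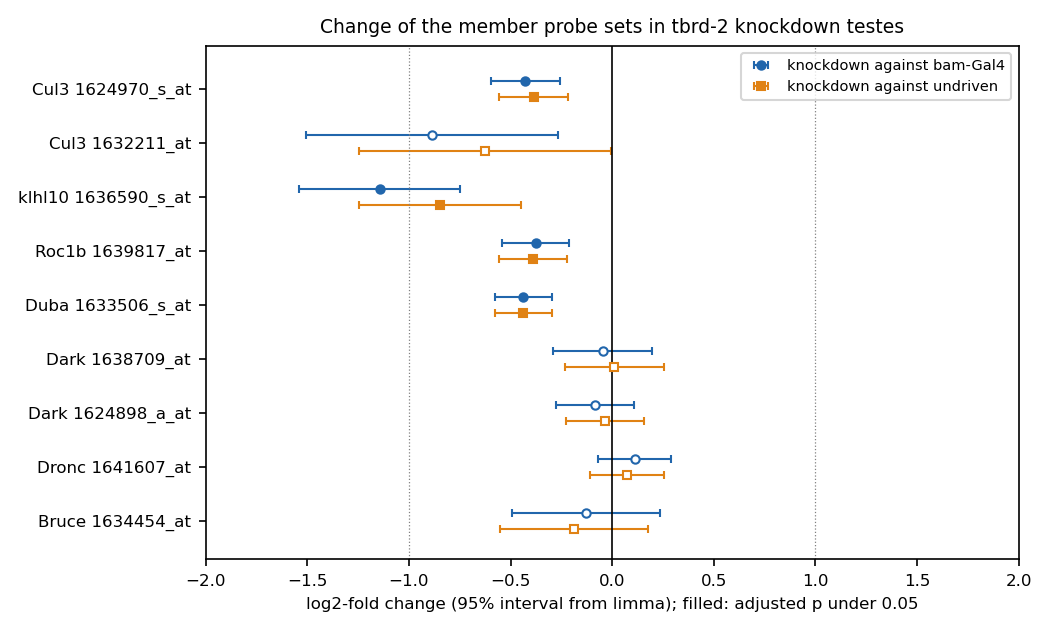
log2-fold change of each probe set in knockdown testes against bam-Gal4 (blue circles) and against undriven testes (orange squares), with 95% limma intervals; filled symbols have an adjusted p under 0.05 and dotted lines mark a log2-fold change of 1 in either direction. klhl10, at −1.14 and −0.85, lies farthest left, and the intervals of Dark, Dronc and Bruce include 0.

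The probe sets of *Dark*, *Dronc* and *Bruce* did not pass against either control. *Dark*, the fly counterpart of Apaf-1 and the adaptor on which initiator caspases assemble, was read by 2 probe sets. Probe set 1638709_at was at 6.11, 6.55 and 6.25 in knockdown testes, against 6.44, 6.31 and 6.30 in *bam*-Gal4 and 6.38, 6.21 and 6.29 in undriven testes, so that the knockdown arrays held both the highest and the lowest value. Its log2-fold change was −0.05 (95% interval −0.29 to 0.20, adjusted p = 0.814) against *bam*-Gal4 and 0.01 (95% interval −0.23 to 0.25, adjusted p = 0.959) against undriven testes. Probe set 1624898_a_at averaged under 5 in every genotype, the only one of the 9 to do so, and gave −0.08 (adjusted p = 0.556) and −0.04 (adjusted p = 0.80).

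*Dronc*, the initiator caspase that Dark activates, was at 8.0, 8.20 and 7.95 in knockdown testes (probe set 1641607_at), against 8.01, 7.83 and 7.98 in *bam*-Gal4 and 7.99, 7.97 and 7.97 in undriven testes. The groups overlapped. The log2-fold change was 0.11 (95% interval −0.07 to 0.29, adjusted p = 0.398) against *bam*-Gal4 and 0.07 (95% interval −0.11 to 0.25, adjusted p = 0.571) against undriven testes. The lower ends of these intervals lie above the changes of *Cul3*, *klhl10*, *Roc1b* and *Duba*.

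*Bruce* encodes a giant protein of the inhibitor-of-apoptosis family with a ubiquitin-conjugating domain, which restrains caspases during sperm formation. Its values at probe set 1634454_at were 8.33, 8.76 and 8.68 in knockdown testes, 9.05, 8.68 and 8.43 in *bam*-Gal4 and 8.70, 8.91 and 8.72 in undriven testes. The 3 genotypes overlapped, and the arrays of *bam*-Gal4 alone spanned most of the range. The log2-fold change was −0.13 (95% interval −0.49 to 0.23, adjusted p = 0.634) against *bam*-Gal4 and −0.19 (95% interval −0.55 to 0.18, adjusted p = 0.467) against undriven testes. Those intervals include drops as large as that of *Duba*, so a drop of that size was not excluded for *Bruce*.

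The controls did not separate in any of the 9 probe sets. Between *bam*-Gal4 and undriven testes 0 of the 9 passed the test (limma), with the widest difference 0.30, that of *klhl10*. Among all probe sets 1.21% passed as lower and 0.865% as higher. *Cul3* 1632211_at, which did not pass in the knockdown comparisons, had an unadjusted limma p of 0.010 against *bam*-Gal4 and 0.048 against undriven testes.

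**Figure D3:**
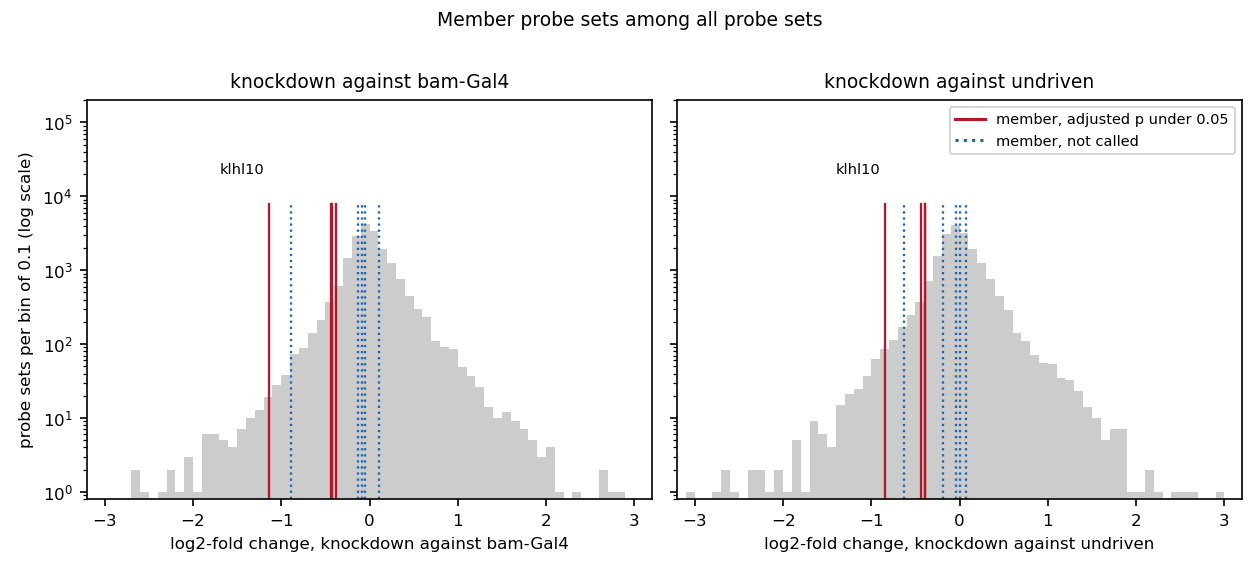
Number of probe sets (vertical axis, log scale) by log2-fold change in bins of 0.1, knockdown against bam-Gal4 on the left and against undriven testes on the right; solid red lines are the member probe sets with an adjusted p under 0.05 and dotted blue lines those without. klhl10 lies in the sparse lower tail at −1.14 and −0.85, and the other 3 lowered probe sets between −0.44 and −0.38, on the shoulder of the distribution.

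Genes that act with these members were read from 5 further lists, with each gene counted once by its brightest probe set. The counts of each list stand beside 5.88% of all probe sets lower and 7.19% higher than in both controls. The first held 8 genes around the ligase and the proteasome step, all of them measured. Relative to both controls, 2 fell and 1 rose, and the medians were −0.11 and −0.09 against *bam*-Gal4 and undriven testes. *ntc* encodes an F-box protein of the individualization pathway that binds the proteasome regulator PI31. It fell by 0.54 and 0.60 (adjusted p = 7.62e-04 and 4.33e-04). *ScsbetaA*, a Krebs cycle subunit gene whose product binds the testis ligase at mitochondria, was at 11.72, 11.74 and 11.68 in knockdown testes, against 12.28, 12.21 and 12.18 in *bam*-Gal4 and 12.15, 12.23 and 12.09 in undriven testes, changes of −0.51 and −0.44 (adjusted p = 5.50e-04 and 0.00118). Both genes had all knockdown arrays below all control arrays.

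*Nedd8*, the ubiquitin-like modifier that activates cullins, was the gene of this list that rose, by 0.29 and 0.22 (adjusted p = 0.0113 and 0.0362). The call against undriven testes was lost under several alternatives. *soti*, whose product inhibits the ligase at one end of the elongated spermatids, gave −0.01 and −0.00. *PI31* was at −0.15 and −0.17 and did not pass (adjusted p = 0.158 and 0.0956). *soti* and *PI31* were named after their values were seen.

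Of 5 caspase genes beyond the members, 4 were measured, and 1 was higher than in both controls. *Strica*, which encodes a caspase with a long prodomain, was at 6.76, 6.39 and 6.96 in knockdown testes, against 5.80, 5.77 and 6.15 in *bam*-Gal4 and 5.92, 6.24 and 6.20 in undriven testes. All its knockdown arrays were above all control arrays, with changes of 0.80 and 0.58 (adjusted p = 0.00774 and 0.0325). The medians of these caspases were 0.36 and 0.11. The effector caspase gene *Dcp-1*, named after its values were seen, was at 0.48 and 0.39 and did not pass (adjusted p = 0.0868 and 0.154).

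Of 13 genes for caspase inhibitors, their antagonists and adaptors, 9 were measured, and 2 rose relative to both controls with 0 that fell, with medians of 0.12 and 0.10. Against *bam*-Gal4 alone 2 were lower and 2 higher, and against undriven testes alone 0 were lower and 2 higher. *Det*, which encodes the fly survivin, was at 9.81, 9.79 and 9.65 in knockdown testes, against 9.28, 9.20 and 9.28 in *bam*-Gal4 and 9.21, 9.35 and 9.40 in undriven testes. It rose by 0.50 and 0.43 (adjusted p = 0.00158 and 0.0034). *grim*, whose product antagonizes inhibitors of apoptosis, rose by 0.46 and 0.49 (adjusted p = 0.02 and 0.0158), at values of 3.14, 3.17 and 3.61 in knockdown testes and 2.78 to 2.87 in the controls, near the bottom of the array's range. *Fadd*, an adaptor of the caspase Dredd, fell by 0.52 against *bam*-Gal4 (adjusted p = 0.0098) and was at −0.26 against undriven testes, which did not pass (adjusted p = 0.133); it was named after its values were seen.

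The actin cone and membrane list had 11 of 15 genes measured, with 3 lower and 2 higher than in both controls and medians of −0.03 and −0.02. *qua*, which encodes a villin-like actin-bundling protein, was at 9.97, 10.28 and 10.18 in knockdown testes, against 10.96, 10.67 and 10.60 in *bam*-Gal4 and 10.90, 10.97 and 10.83 in undriven testes, changes of −0.60 and −0.76 (adjusted p = 0.00505 and 0.00153). *Past1*, an EHD-family membrane protein gene, fell by 0.35 and 0.89 (adjusted p = 0.0181 and 1.62e-04), and its 2 controls differed from each other. *aux*, the auxilin gene of clathrin uncoating, rose by 0.28 and 0.50 (adjusted p = 0.0407 and 0.00282), and the Arp2/3 subunit gene *Arpc1* rose by 0.42 and 0.34 (adjusted p = 0.0107 and 0.0295). The third lower gene, *Vps28* of the ESCRT-I complex, fell by 0.25 and 0.26; as the fifth gene of the list it was named after its values were seen.

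Among 15 other genes whose mutants have individualization defects, 14 were measured, with 2 lower and 1 higher than in both controls and medians of −0.14 and −0.06. *mlt*, a tubulin-cofactor-like gene, fell by 0.31 and 0.50 (adjusted p = 0.0259 and 0.00272), and *fan*, a VAP-family gene, fell by 0.26 and 0.33 (adjusted p = 0.0128 and 0.00418). *spag4*, which encodes a SUN-domain protein of the spermatid nuclear envelope, was at 9.31, 9.43 and 9.18 in knockdown testes, against 8.70, 8.49 and 8.66 in *bam*-Gal4 and 8.54, 8.59 and 8.64 in undriven testes, a rise of 0.69 and 0.72. *yuri*, the neighbour of *Cul3* on one side in the RefSeq annotation, was at −0.28 and −0.21 and did not pass (adjusted p = 0.0555 and 0.136). *UK114*, the neighbour on the other side, was at −0.06 and −0.03 (adjusted p = 0.547 and 0.739). Neither belongs to the genes named by rule.

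Over the 5 lists, with 8, 4, 9, 11 and 14 genes measured, 7 genes were lower and 7 higher than in both controls. None of them passed the fold limit. Among all probe sets 5.88% were lower and 7.19% higher. Among the 9298 with a mean of at least 6, fitted alone, 1098 were lower and 1310 higher. Of the 7 measured member genes 4 were lower, 0 higher and 3 not called, and the list around the ligase had 2 lower and 1 higher. A difference between the members and the lists was not tested.

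**Figure D4:**
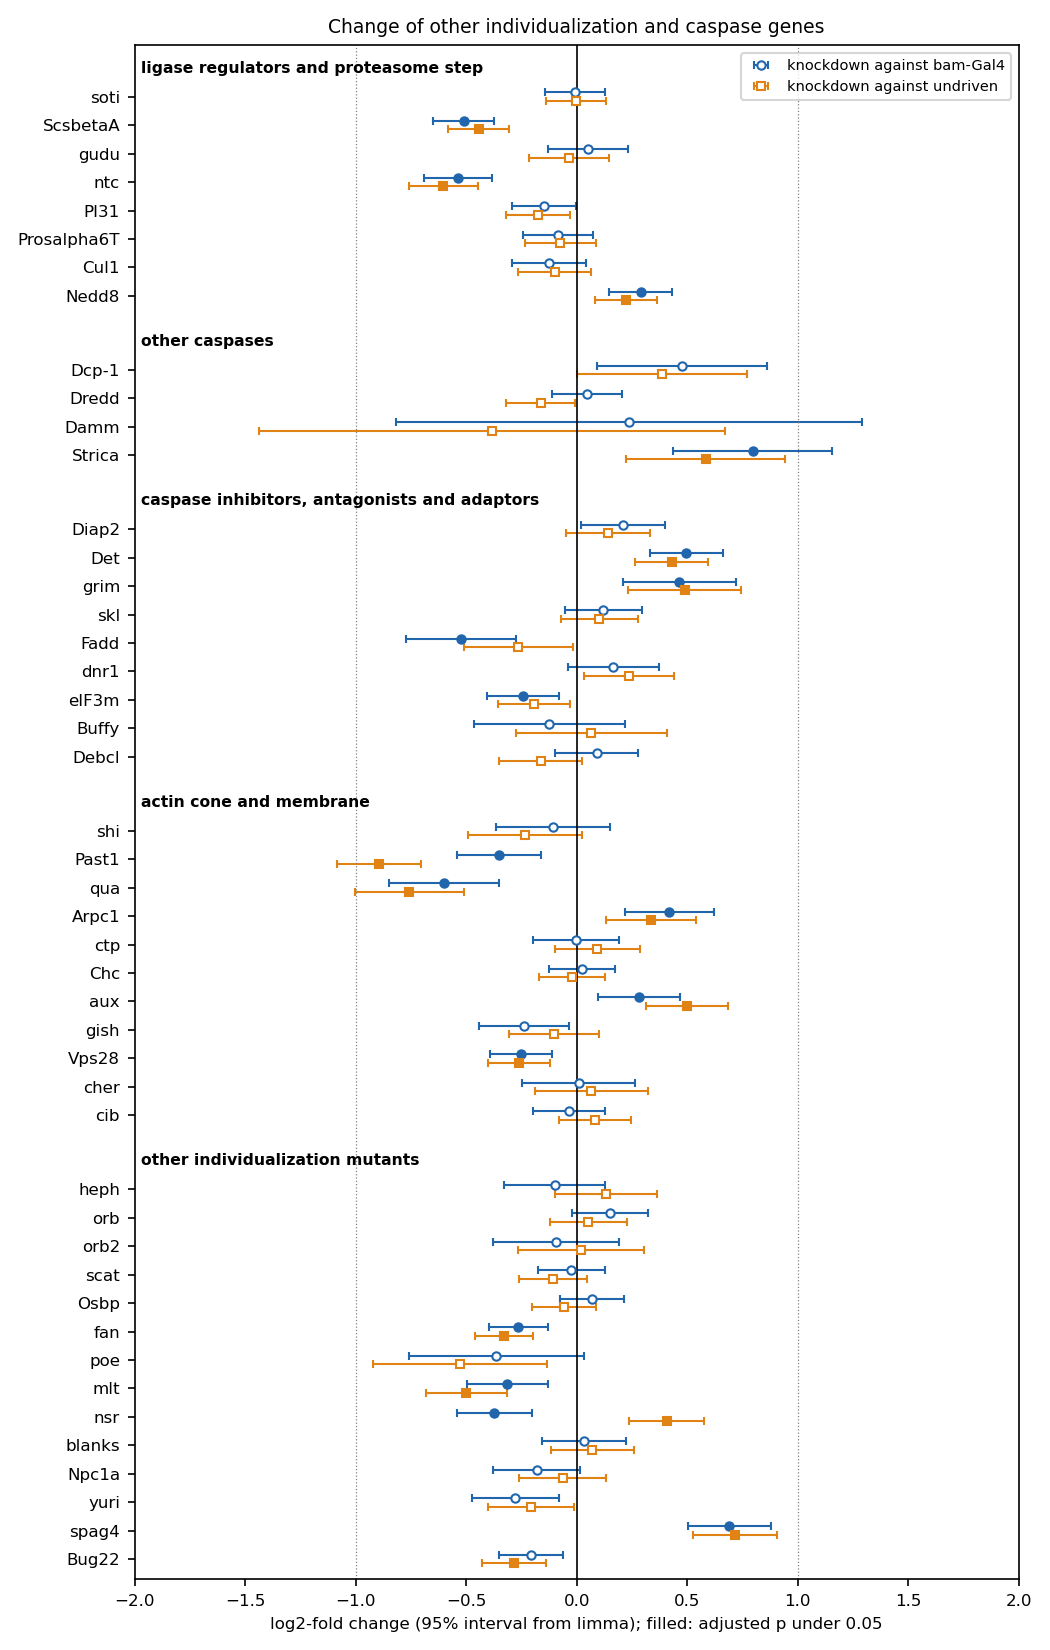
log2-fold change in knockdown testes of the measured genes of 5 lists against bam-Gal4 (blue circles) and undriven testes (orange squares), with 95% limma intervals; filled symbols have an adjusted p under 0.05. ntc, ScsbetaA, qua and Past1 lie to the left with both symbols filled, and Strica, spag4, Det and aux to the right.

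The genes whose pattern over the 9 arrays was most like that of *klhl10* and *Duba* were taken by Pearson's r from 8192 single-symbol probe sets with a mean of at least 6. For *klhl10* these were *CG30466* (r = 0.978), *Gk1* (r = 0.974) and *CG31798* (r = 0.973), which fell by 0.65, 0.45 and 0.31 against *bam*-Gal4. For *Duba* these were *ND-51L1* (r = 0.997), *CG13458* (r = 0.996) and *CG10561* (r = 0.995), which fell by 0.92, 0.88 and 0.58 against *bam*-Gal4 and by 0.91, 0.88 and 0.62 against undriven testes. The arrays share their genotypes, so these are descriptions of a common pattern.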

How the data were processed

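Testis RNA of 3 genotypes was hybridised to 9 arrays. The authors read the scanner files with the affy package and deposited RMA log2 values, 1 per probe set and array, rounded; no source used here gives package versions or an annotation build, so no coordinates are printed. RMA equalises array distributions, so a shift of all transcripts would not be seen, and array number limits the precision. The platform annotation gave 13647 probe sets a single symbol, 402 several and 4903 none; 13544 of the first matched RefSeq.

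All 18952 probe sets of 9 arrays were fitted with limma 3.58.1 in R 4.3.3 (lmFit, eBayes, 1 mean per genotype, 6 residual degrees of freedom), with Benjamini-Hochberg adjustment; the script was tested on simulated data. The study's methods add a fold limit of 1 on the log2 scale, and both rules are given. Members and lists were chosen with earlier results of these data known. Named genes were the members, *tbrd-2*, from each list up to 4 genes called against both controls, largest mean change first, and 3 genes most like *klhl10* and *Duba*. Alternatives covered normalization, filters, weights, single arrays left out, the fold limit and a replicate block.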

Additional observations from a re-analysis of the deposited data

Results flagged for a closer look

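For 2 genes of the individualization lists the controls differed from each other, so that the change seen in the knockdown depends on which control it is set against. *nsr*, which encodes an RNA-binding protein needed for male fertility, was at 10.12, 10.12 and 10.17 in knockdown testes, 10.39, 10.52 and 10.62 in *bam*-Gal4 and 9.63, 9.77 and 9.79 in undriven testes. The knockdown arrays lay between the controls, lower than *bam*-Gal4 by a log2-fold change of −0.37 (limma adjusted p = 0.00808) and higher than undriven by 0.41 (adjusted p = 0.00529), and *bam*-Gal4 exceeded undriven testes by 0.78 (adjusted p = 6.07e-04). *Past1* was at 10.57, 10.63 and 10.54 in knockdown testes, 11.09, 10.82 and 10.88 in *bam*-Gal4 and 11.44, 11.58 and 11.40 in undriven testes. It was lowest in the knockdown, and *bam*-Gal4 differed from undriven testes by −0.54 (adjusted p = 0.0101; 0.0572 without *bam*-Gal4 replicate 3). Without knockdown replicate 3, *bam*-Gal4 replicate 2 and undriven replicate 3, picked by accessory gland or gut transcripts, the difference was −0.53 (adjusted p = 0.106).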

How the results depend on the processing

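The 4 lowered probe sets stayed lower than both controls under every alternative fit (replicate block, the 6 arrays of a comparison, quantile normalization again, median centring, filters at a mean of 5 or 6, eBayes with trend, array weights, each array left out) except the removal of knockdown replicate 3, *bam*-Gal4 replicate 2 and undriven replicate 3, picked by accessory gland or gut transcripts, which left 2 against *bam*-Gal4, 2 against undriven testes and 2 against both; that alternative was chosen after seeing the data. A 1.5-fold limit left 1 (*klhl10*) in each comparison, where the limit of 1 on the log2 scale gave 1, 0 and 0. With single arrays left out, 4 to 5 probe sets were called against *bam*-Gal4. The pathway genes were less stable: of 7 lower and 7 higher, removing single arrays gave 4 to 7 lower and 3 to 7 higher, removing the 3 arrays gave 3 lower and 2 higher, and the 6-array fit gave 4 higher. The calls of *ntc*, *ScsbetaA*, *Det*, *qua* and *spag4* held in every alternative fit, whereas *Nedd8*, *Strica*, *Arpc1*, *aux*, *Vps28*, *mlt*, *fan*, *grim*, *Past1* and *nsr* each lost a call against one of the controls in at least 1 of them, single arrays left out included. *Cul3* 1632211_at passed against *bam*-Gal4 in several settings (adjusted p = 0.0423 after quantile normalization again, 0.0146 with array weights).

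Directions that turned were all near 0 and not called. *Dark* 1638709_at against undriven testes was at −0.021 after quantile normalization again, −0.0021 with array weights and −0.11 to 0.11 with single arrays left out, and against *bam*-Gal4 at −0.17 to 0.05 with single arrays left out. *Dark* 1624898_a_at against undriven testes was at 0.014 after quantile normalization again and −0.12 to 0.023 with arrays left out. *Dronc* against undriven testes ranged from −0.0017 to 0.12, and *Bruce* against *bam*-Gal4 from −0.28 to 0.035, with arrays left out, and *Bruce* was at 0.047 with array weights. Same-numbered arrays did not deviate together (r from −0.58 to 0.33; 3 of 9 pairs over 0.1; 1 of 9 arrays closest to its own number). With the replicate number as a block, 4 member probe sets remained lower than both controls (largest adjusted p = 0.0224) and 4 pathway genes were higher. Array weights called 5242 probe sets against *bam*-Gal4, against 3529 without.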
